A study of Arabis alpina with 9 samples.

Results

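The genes described here are the *Arabis alpina* orthologs of 38 Arabidopsis genes that drive the cell division cycle: the A-, B- and D-type cyclins, the cyclin-dependent kinases (CDKs) of the A and B classes, the CDK inhibitor *KRP1*, the replication genes *PCNA1*, *PCNA2*, *MCM2*, *MCM5* and *MCM7*, and the cytokinesis gene *KNOLLE*. They were chosen by their Arabidopsis identifier, through the ortholog column of the table of 30690 *A. alpina* genes. The rule uses no measured value, although the family was picked for description with earlier results of these data known. A row was found for 36 of the 38, and 35 had enough reads to be tested among 21713 tested genes. *PCNA2* and *CYCB1;4* were not analysed here, since no row carries their identifier, and *CYCD7;1*, which in Arabidopsis acts in the last division of the stomatal lineage, had 4 reads in all 9 libraries together (1 in *pep2-1*, 3 in *pep1-1* and none in the wild type).

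Polyadenylated RNA was sequenced from dissected shoot apices of *pep2-1*, *pep1-1* and wild-type plants of the accession Pajares, with 3 libraries per genotype that the study describes as biological replicates. All plants were 3 weeks old and had grown in 16 h of light and 8 h of dark, without cold treatment. Both mutants come from EMS mutagenesis of Pajares, so each may carry other induced mutations, and the *pep2-1* plants (labelled *pep2* in the sample descriptions) were homozygotes selected with a marker from a segregating population. *PEP1* is the ortholog of the floral repressor *FLC* and *PEP2* that of *AP2*. The libraries carry the letters A, B and C in the deposited table.

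A cyclin binds a CDK and switches the kinase on, and successive cyclins carry a cell through the cycle. In plants, D-type cyclins with CDKA link growth signals and sugar to the start of DNA replication, A3-type cyclins are linked to S phase, A1- and A2-type cyclins to S phase and the time up to mitosis, and B-type cyclins with the plant-specific B-type CDKs to entry into mitosis. In the shoot apex, dividing cells are found in the meristem and in the young leaf primordia around it, so that transcripts of phase-specific genes in a dissected apex come from whichever cells are at that phase.

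Reads in genes numbered 12871903 to 23829973 per library, and 24417 to 24807 genes had at least 1 read. The tissue label was checked with meristem markers: *STM*, *KNAT1*, *KNAT2* and *CLV1* were present, while *CLV3* and *WUS*, which mark very few cells, were at or below 0.234 CPM in every library (CPM, the usual counts-per-megaread unit, are read counts relative to the TMM-scaled library size). Summed over 6 leaf photosynthesis genes the level was 6767.6 to 8668.4 CPM in *pep2-1*, 6118.3 to 8570.1 in *pep1-1* and 5463.2 to 8160.8 in the wild type. Root hair genes summed to at most 0.232 CPM in any library. *PEP2* itself was read in all 9 libraries, and the presence of reads in a point mutant neither checks nor contradicts the labels. Its level was 72.2 to 84.8 CPM in *pep2-1*, above 49.7 to 61.5 CPM in *pep1-1* and 54.9 to 67.6 CPM in the wild type.

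The cell cycle genes were well expressed in these apices. Levels between genes were compared per length, in FPKM as the mean of the authors' values for the 3 genotypes, with the spread over libraries taken from CPM scaled to that mean. The median of the 35 tested genes was 28.5 FPKM against 11.9 FPKM for all tested genes, with 22 of the 35 above that value. *PCNA1*, the sliding clamp that holds DNA polymerase on its template, was the most abundant at 200.6 FPKM (range 175.6 to 230.1 over the libraries). *KNOLLE*, the syntaxin that fuses vesicles into the new cell plate, followed at 106.2 FPKM (89.8 to 123.5), and *CDKB1;2* at 72.3 FPKM (63.9 to 82.7). The lowest were *CYCA2;2* at 1.95, *CYCA2;1* at 1.28 and *CYCB3;1* at 1.08 FPKM. In the order of levels, neighbours were separated, with the lowest library of the higher gene above the highest library of the lower gene, at 5 of 34 steps: below *PCNA1*, *KNOLLE*, *CYCD3;3*, *CYCA2;3* and *CYCA2;2*. The other neighbours overlapped. Within families the spread was wide, from *CYCD3;1* at 65.3 FPKM to *CYCD4;1* at 3.11 FPKM among the D-type cyclins and from *CYCB1;1* at 54.7 FPKM to *CYCB3;1* among the B-type cyclins.

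**Figure D1:**
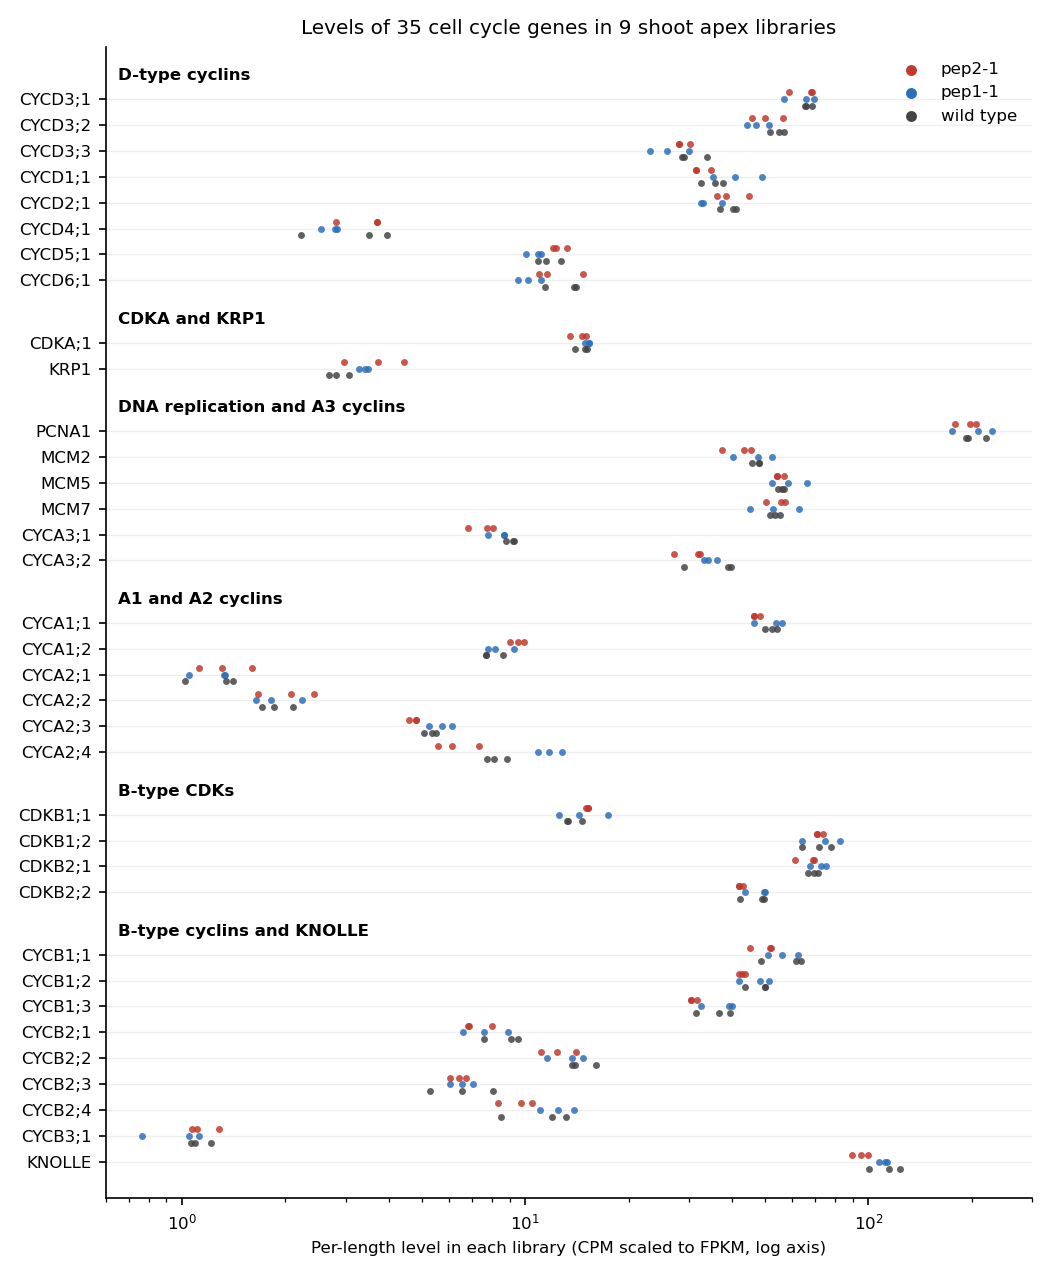
Per-length level of each tested cell cycle gene on a log axis (CPM of a library scaled to the gene's mean FPKM), grouped by role, with 1 point per library and the genotypes offset within a row (*pep2-1* above, *pep1-1* in the middle, wild type below). The genotypes overlap for most genes, and *PCNA1* at 200.6 FPKM and *CYCB3;1* at 1.08 FPKM mark the ends of the order of levels.

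Few of the 35 genes differed between the genotypes past the test. In bulk apices, fewer dividing cells and less RNA per cell cannot be told apart. Against the wild type, no gene passed an adjusted p of 0.05 (edgeR quasi-likelihood test) in *pep2-1*, where 1.52% of all tested genes did, or in *pep1-1*, where 0.193% did. At an unadjusted p under 0.05 there were 4 of 35 in *pep2-1* over the wild type (1 higher and 3 lower, with 15.3% of all tested genes in either direction, 7.42% higher and 7.87% lower) and 2 of 35 in *pep1-1* over the wild type (1 higher and 1 lower, with 6.36% of all tested genes, 2.81% higher and 3.56% lower). The DESeq2 Wald test passed none in *pep2-1* and 1 in *pep1-1*, *CYCA2;4*, and limma-voom passed none in either. With the library letter as a block, edgeR passed *CYCA2;4* in both (adjusted p = 0.0487 in *pep2-1* and 0.0480 in *pep1-1*). Between the mutants 1 of the 35 passed in edgeR, DESeq2 and limma-voom, *CYCA2;4*, where 2.51% of all tested genes passed in edgeR and 1.23% passed with a lower level in *pep2-1*. At an unadjusted p under 0.05 there were 8 of the 35 (2 higher and 6 lower in *pep2-1*), against 19.1% of all tested genes, 10.1% higher and 8.96% lower. None of the 35 met the 2-fold rule of the study (an adjusted p no larger than 0.05 with a log2 fold change of 1 or more in size), which 0.834%, 0.161% and 1.34% of all tested genes met in *pep2-1* over the wild type, *pep1-1* over the wild type and *pep2-1* over *pep1-1*.

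The precision was enough to bound the differences of most genes. The 95% interval of the log2 fold change, taken gene by gene, lay between -1 and 1 for 35 of the 35 genes in *pep2-1* over the wild type, for 35 in *pep1-1* over the wild type and for 34 in *pep2-1* over *pep1-1*. Between -0.5 and 0.5 lay the intervals of 26, 28 and 25 genes in the same order of comparisons. The share of all tested genes with an interval between -1 and 1 was 83.8%, 87.3% and 82.1%. For an interval between -0.5 and 0.5 the share was 55.1%, 60.9% and 53.3%. These shares were not matched for level, with a median of 28.5 FPKM for the 35 genes and 11.9 FPKM for all tested genes.

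The median log2 fold change of the 35 genes was -0.08 in *pep2-1* over the wild type, -0.01 in *pep1-1* over the wild type and -0.08 in *pep2-1* over *pep1-1*, with a median of -0.00, -0.00 and -0.01 over all tested genes. In *pep2-1*, 24 of the 35 fold changes lay below 0 relative to the wild type (68.6%, against 50.3% of all tested genes), while 19 did in *pep1-1* relative to the wild type (54.3%, against 50.6%) and 21 in *pep2-1* relative to *pep1-1* (60.0%, against 51.4%). These medians moved with single libraries: the first was -0.13 without wild-type replicate A, and the last lay between -0.16 and -0.03 when each library was left out in turn. The comparisons share libraries, so their values are set side by side and not counted as separate evidence.

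**Figure D2:**
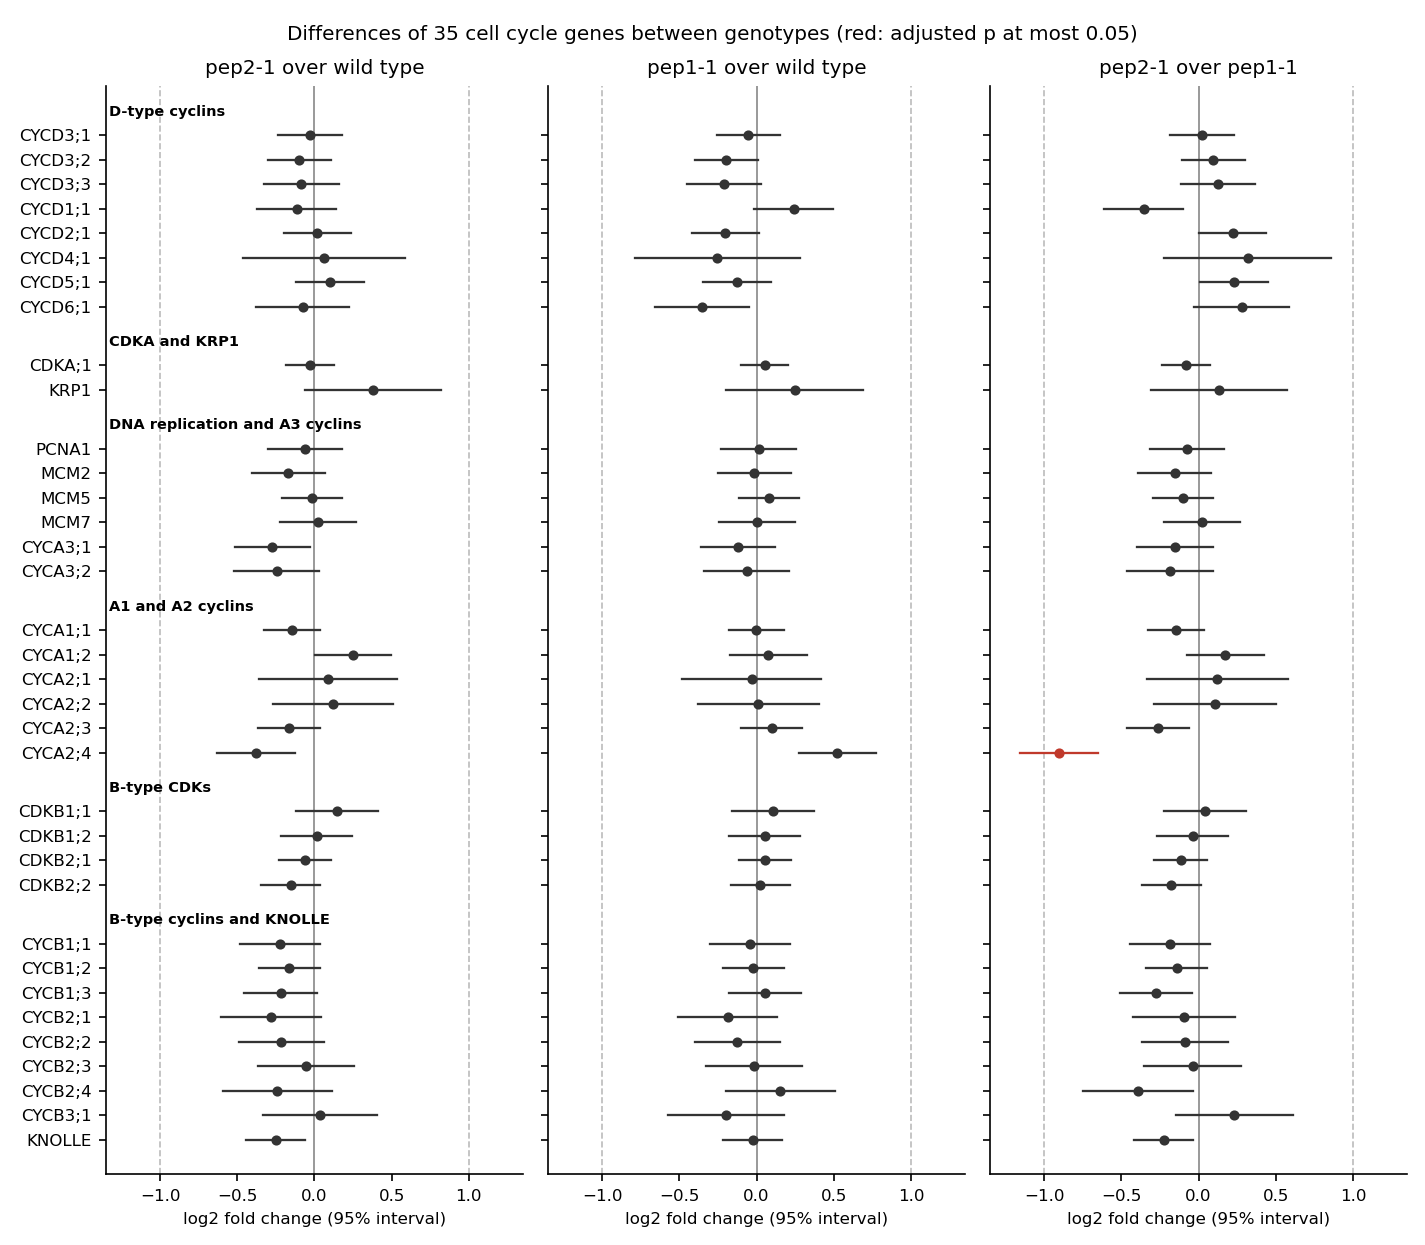
Log2 fold change with its 95% interval for each of the 35 tested genes, in *pep2-1* over the wild type, *pep1-1* over the wild type and *pep2-1* over *pep1-1*, with dashed lines at -1 and 1. The point for *CYCA2;4* in *pep2-1* over *pep1-1*, at -0.90, is the 1 that passed an adjusted p of 0.05.

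The D-type cyclins, which start the cycle, gave no call among their 8 tested members. *CYCD3;1* (AALP_AA7G210000, ortholog of AT4G34160), which with its close relatives keeps Arabidopsis leaf cells dividing, had 83.0, 96.5 and 97.0 CPM in *pep2-1* replicates A, B and C, 93.3, 98.1 and 80.5 CPM in *pep1-1* and 92.7, 96.7 and 92.7 CPM in the wild type. Its libraries overlapped in every pair of genotypes, and its log2 fold change was -0.03 in *pep2-1* over the wild type (95% interval -0.23 to 0.18). The largest difference in the group was that of *CYCD1;1* (AALP_AA2G130900, ortholog of AT1G70210), whose Arabidopsis ortholog acts during germination. *CYCD1;1* had 52.0, 51.8 and 57.5 CPM in *pep2-1*, 67.4, 80.5 and 58.3 CPM in *pep1-1* and 53.7, 62.0 and 58.9 CPM in the wild type. All *pep2-1* libraries lay below all *pep1-1* libraries, by 0.8 CPM at the nearest, and the log2 fold change was -0.36 (standard error 0.115, edgeR adjusted p = 0.138).

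The other D-type cyclins had the opposite sign in that comparison. Of the 8, 7 had a log2 fold change above 0 in *pep2-1* over *pep1-1*, with a group median of 0.17, and 7 had one below 0 in *pep1-1* over the wild type, with a group median of -0.20, while the median in *pep2-1* over the wild type was -0.05. *CYCD6;1*, a target of SHORT-ROOT in the Arabidopsis root, had 16.2, 12.8 and 12.1 CPM in *pep2-1*, 10.6, 11.3 and 12.3 CPM in *pep1-1* and 12.6, 15.4 and 15.5 CPM in the wild type. Its *pep1-1* libraries all lay below the wild type, with a log2 fold change of -0.36 (standard error 0.137, edgeR adjusted p = 0.705). Of all tested genes, 51.4% lay below 0 in *pep2-1* over *pep1-1* and 50.6% in *pep1-1* over the wild type. No gene of the group passed the test in any comparison. Replicate C of *pep1-1* was the lowest of its genotype for 6 of the 8, where it was the lowest for 33.8% of all tested genes.

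*CDKA;1* (AALP_AA5G110300, ortholog of AT3G48750) is the kinase that serves throughout the cycle. It had 44.5, 46.0 and 41.2 CPM in *pep2-1*, 45.7, 46.8 and 46.9 CPM in *pep1-1* and 42.6, 46.3 and 45.5 CPM in the wild type, with log2 fold changes of -0.03 (95% interval -0.19 to 0.13) in *pep2-1* over the wild type and 0.05 (-0.10 to 0.21) in *pep1-1* over the wild type. *KRP1* (AALP_AA6G283200, ortholog of AT2G23430), an inhibitor that binds CDKA and D-type cyclins, had 3.48, 2.32 and 2.92 CPM in *pep2-1*, 2.57, 2.67 and 2.73 CPM in *pep1-1* and 2.41, 2.21 and 2.11 CPM in the wild type. Both mutants averaged above the wild type, and *pep1-1* did so without overlap, but the differences did not pass (log2 fold change 0.38 and edgeR adjusted p = 0.394 in *pep2-1* over the wild type, 0.25 and 0.952 in *pep1-1* over the wild type). With 349 reads in the 9 libraries together, *KRP1* had among the widest intervals, reaching 0.82 in *pep2-1* over the wild type.

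Genes of DNA replication and the A3 cyclins gave no call among 6 tested. *PCNA1* (AALP_AA1G073800, ortholog of AT1G07370) had 161.0, 140.0 and 154.8 CPM in *pep2-1*, 179.7, 162.5 and 137.1 CPM in *pep1-1* and 172.6, 150.1 and 152.6 CPM in the wild type. The genotypes overlapped, with a log2 fold change of -0.06 (95% interval -0.30 to 0.18) in *pep2-1* over the wild type and 0.01 (-0.23 to 0.25) in *pep1-1* over the wild type. The genes *MCM2*, *MCM5* and *MCM7*, subunits of the helicase that opens DNA at the replication fork, had log2 fold changes of -0.17, -0.02 and 0.02 in *pep2-1* over the wild type and of -0.01, 0.08 and 0.00 in *pep1-1* over the wild type. Among *PCNA1*, *MCM2*, *MCM5* and *MCM7*, *MCM2* was the 1 whose *pep2-1* libraries all lay below the wild type. It had 122.6, 105.6 and 128.2 CPM in *pep2-1* and 135.8, 129.7 and 135.3 CPM in the wild type, with an edgeR adjusted p of 0.479. *CYCA3;1* (AALP_AA6G154900, ortholog of AT5G43080), an S-phase cyclin, had 8.72, 9.04 and 7.64 CPM in *pep2-1*, 9.75, 9.74 and 8.75 CPM in *pep1-1* and 10.3, 10.4 and 9.90 CPM in the wild type. Both mutants lay below the wild type in every library, with a log2 fold change of -0.27 (edgeR adjusted p = 0.273) in *pep2-1* and -0.12 (0.969) in *pep1-1*.

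*CYCA2;4* was the gene that stood apart. Its gene model (AALP_AA2G255600, ortholog of AT1G80370) spans 27986468 to 27989716 on chromosome 2 in the *A. alpina* assembly used by the authors, with no other gene model over it, and in Arabidopsis the A2 cyclins act with CDKB1 kinases to keep cells in the mitotic cycle and to hold back endoreduplication, the doubling of DNA without division. Its level was 17.1, 22.6 and 18.8 CPM in *pep2-1* (19.5 ± 2.79, SD, n = 3), 33.6, 39.3 and 36.2 CPM in *pep1-1* (36.4 ± 2.88) and 23.8, 24.9 and 27.1 CPM in the wild type (25.3 ± 1.67). No library of any genotype overlapped with another genotype: *pep2-1* was lowest, the wild type lay between and *pep1-1* was highest. These values rest on 238 to 608 reads per library. Per length, the authors' value was 6.34 FPKM in *pep2-1*, 11.8 FPKM in *pep1-1* and 8.21 FPKM in the wild type, which places the gene in rank 25 of the 35.

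In *pep2-1* over *pep1-1*, *CYCA2;4* fell with a log2 fold change of -0.90 (standard error 0.113, 95% interval -1.16 to -0.65, edgeR adjusted p = 0.00502), a ratio of mean CPM of 0.536. Over the 17 alternative settings of the analysis the adjusted p lay between 1.37e-08 and 0.0309 and the log2 fold change between -1.02 and -0.82, so the call held in each. Neither mutant differed from the wild type past the threshold in the reported fit, which has no term for the library letter. In *pep2-1* over the wild type the log2 fold change was -0.38 (standard error 0.114, 95% interval -0.63 to -0.12, edgeR adjusted p = 0.157), while the value for *pep1-1* over the wild type was 0.52 (standard error 0.111, 95% interval 0.28 to 0.77, edgeR adjusted p = 0.186). The letters pair the *pep1-1* and wild-type libraries, and with the letter as a block the value in *pep1-1* over the wild type was 0.53 with an edgeR adjusted p of 0.0480, past the threshold. Matched by letters A, B and C, the log2 difference of the gene was -0.97, -0.80 and -0.94 in *pep2-1* over *pep1-1*, where the letters were not read as pairs. Since no libraries overlapped between genotypes, any match of libraries gives the sign of the fold change.

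The other A1 and A2 cyclins did not follow that order past the test. *CYCA2;3*, its relative with a role in ending endoreduplication in Arabidopsis trichomes, had 14.7, 14.0 and 14.7 CPM in *pep2-1*, 16.0, 17.5 and 18.7 CPM in *pep1-1* and 16.4, 15.5 and 16.9 CPM in the wild type. Its *pep2-1* libraries lay below those of both other genotypes, with a log2 fold change of -0.26 over *pep1-1* (edgeR adjusted p = 0.154) and -0.16 over the wild type (edgeR adjusted p = 0.412). *CYCA2;1* and *CYCA2;2*, at 1.28 and 1.95 FPKM, had log2 fold changes of 0.09 and 0.12 in *pep2-1* over the wild type. *CYCA1;1*, the most abundant of the group at 50.4 FPKM, had 70.6, 67.6 and 68.0 CPM in *pep2-1*, 81.7, 78.5 and 68.0 CPM in *pep1-1* and 76.3, 72.9 and 79.2 CPM in the wild type. Its *pep2-1* libraries all lay below the wild type (log2 fold change -0.15, edgeR adjusted p = 0.420) and 1 *pep1-1* library reached them. *CYCA1;2*, known in Arabidopsis for its role in meiosis, went the other way, with 11.1, 10.4 and 11.5 CPM in *pep2-1* above 9.99, 8.88 and 8.92 CPM in the wild type (log2 fold change 0.25, edgeR adjusted p = 0.323).

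**Figure D3:**
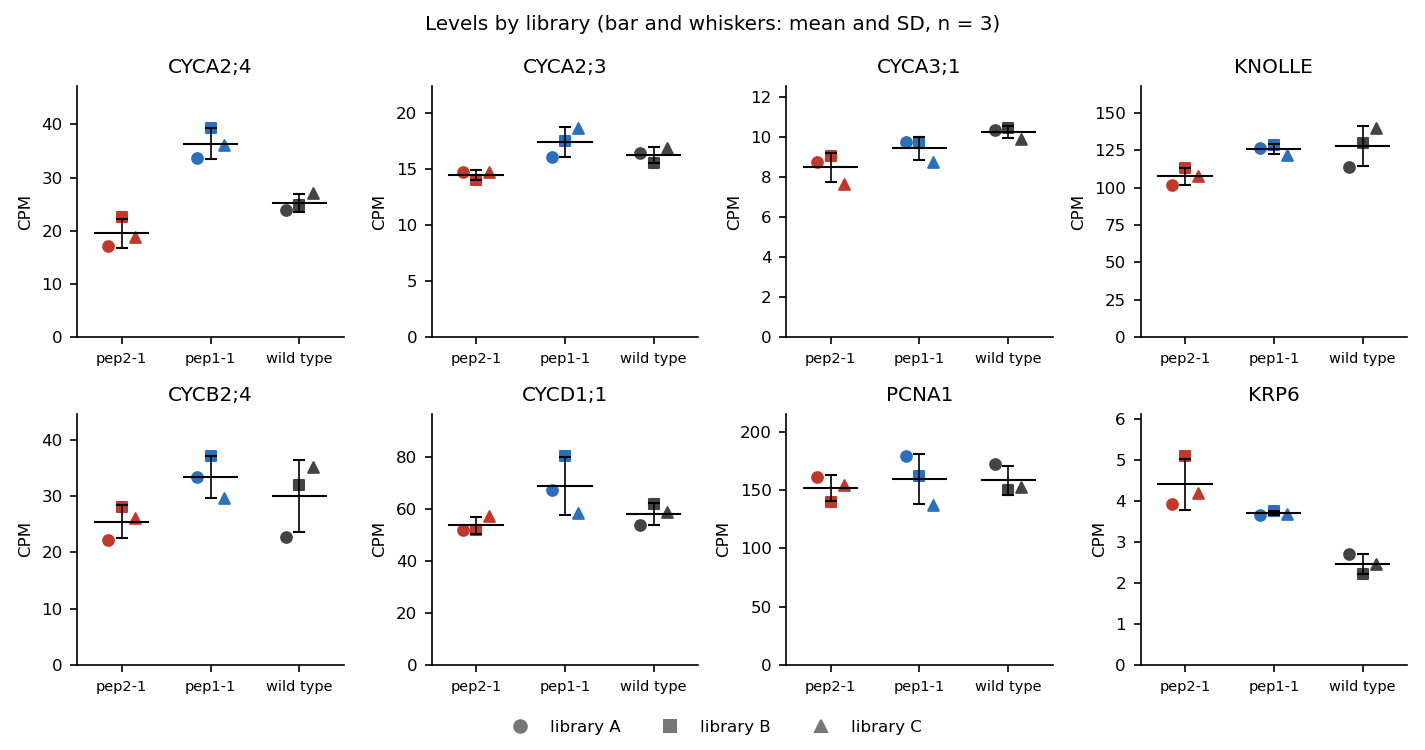
CPM in each library for *CYCA2;4*, *CYCA2;3*, *CYCA3;1*, *KNOLLE*, *CYCB2;4*, *CYCD1;1*, *PCNA1* and the CDK inhibitor *KRP6*, with the genotypes from left to right as *pep2-1*, *pep1-1* and wild type, a marker shape per library letter, and bar and whiskers for mean and SD. For *CYCA2;4* the 3 genotypes form separate bands at 17.1 to 22.6, 33.6 to 39.3 and 23.8 to 27.1 CPM.

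The B-type CDKs, kinases of mitotic entry found only in plants and algae, stayed close between the genotypes. *CDKB1;2* (AALP_AA4G167800, ortholog of AT2G38620) had 78.4, 78.7 and 82.0 CPM in *pep2-1*, 91.7, 83.1 and 70.9 CPM in *pep1-1* and 86.3, 71.0 and 79.7 CPM in the wild type, and its log2 fold change was 0.01 in *pep2-1* over the wild type (95% interval -0.22 to 0.25). *CDKB2;2* (AALP_AA5G273900, ortholog of AT1G20930), needed with its copy for an ordered shoot meristem in Arabidopsis, had 41.0, 42.1 and 41.1 CPM in *pep2-1*, 48.5, 49.1 and 42.7 CPM in *pep1-1* and 41.3, 48.6 and 48.1 CPM in the wild type. Its *pep2-1* libraries lay below those of *pep1-1* without overlap, with a log2 fold change of -0.18 (edgeR adjusted p = 0.304), and overlapped with the wild type. Over the 4 kinases the median log2 fold change was -0.02 in *pep2-1* over the wild type, 0.05 in *pep1-1* over the wild type and -0.08 in *pep2-1* over *pep1-1*.

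The B-type cyclins and *KNOLLE*, the genes of mitosis and cytokinesis, were on the low side in *pep2-1*, and none of the 9 tested passed. In *pep2-1* over the wild type 8 of the 9 log2 fold changes lay below 0, where 50.3% of all tested genes did. The 9 values lay between -0.28 and 0.04, with a median of -0.22 against -0.00 over all tested genes. In *pep1-1* over the wild type the median was -0.02. *KNOLLE* (AALP_AA1G089500, ortholog of AT1G08560) had 101.8, 113.1 and 108.1 CPM in *pep2-1*, 126.4, 128.9 and 122.0 CPM in *pep1-1* and 113.7, 130.1 and 140.1 CPM in the wild type. All *pep2-1* libraries lay below all the others, with a log2 fold change of -0.25 (standard error 0.0858, 95% interval -0.44 to -0.06, edgeR adjusted p = 0.207) over the wild type and -0.23 (standard error 0.0860, edgeR adjusted p = 0.196) over *pep1-1*.

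Among the cyclins themselves, *CYCB2;4* (AALP_AA2G205300, ortholog of AT1G76310) had the largest difference of the group, with 22.3, 28.1 and 26.1 CPM in *pep2-1*, 33.4, 37.2 and 29.6 CPM in *pep1-1* and 22.8, 32.0 and 35.1 CPM in the wild type. Its *pep2-1* libraries lay below those of *pep1-1* (log2 fold change -0.39, standard error 0.160, edgeR adjusted p = 0.221) and overlapped with the wild type. *CYCB1;1*, whose promoter is the usual reporter of cells about to divide, had 57.3, 65.9 and 65.3 CPM in *pep2-1*, 70.7, 78.7 and 64.6 CPM in *pep1-1* and 61.7, 77.9 and 80.5 CPM in the wild type, and overlapped in both comparisons of *pep2-1*. *CYCB3;1*, the lowest in level, was the 1 of the 9 with a log2 fold change above 0 in *pep2-1* over the wild type, at 0.04.

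The low side of this group depended on the library. Wild-type replicate A was the lowest of its genotype for 9 of the 9 genes, where it was the lowest for 38.97% of all tested genes, and *pep1-1* replicate C for 8 of the 9, where it was the lowest for 33.8% of all tested genes. Within letters A, B and C the group median of the log2 difference in *pep2-1* over the wild type was -0.03, -0.19 and -0.33, while for *pep1-1* over the wild type the medians were 0.19, -0.01 and -0.29. In *pep1-1* the sign turned between letters. The letters were not read as pairs between *pep2-1* and the wild type. There the deviations of same-letter libraries correlated at 0.415 in A, 0.286 in B and 0.00125 in C. Those 3 medians thus rest on a match of libraries that did not hold in every letter. In letters A, B and C, 6, 7 and 9 of the 9 genes lay below 0 in *pep2-1* over the wild type. Summed over the 8 B-type cyclins the level was 257.5, 277.2 and 264.6 CPM in *pep2-1*, 312.8, 323.1 and 269.4 CPM in *pep1-1* and 263.7, 318.6 and 328.9 CPM in the wild type, with wild-type replicate A inside the range of *pep2-1*.

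Summed markers of other cells overlapped between the genotypes, except the vascular markers in *pep2-1*. The 5 vascular markers summed to 406.8 to 454.2 CPM in *pep2-1*, above 276.5 to 380.7 CPM in *pep1-1* and 303.2 to 366.6 CPM in the wild type. *PXY* alone averaged 230.5 CPM in *pep2-1*, where the sum averaged 434.6 CPM. *SUC2* in *pep2-1* replicate A, at 40.6 CPM, lay below the wild type (60.7 to 64.5 CPM). The 6 meristem markers summed to 227.5 to 292.9 CPM in *pep2-1*, 160.7 to 234.8 CPM in *pep1-1* and 172.9 to 237.3 CPM in the wild type. The 3 trichome markers summed to 77.5 to 104.4 CPM in *pep2-1*, 104.2 to 146.0 CPM in *pep1-1* and 98.4 to 140.8 CPM in the wild type, and the 3 stomatal lineage markers to 13.1 to 15.2, 14.4 to 19.1 and 12.5 to 16.9 CPM. Gene by gene, every *pep2-1* library lay above every wild-type library for 3 of the 4 tested meristem markers (*STM*, *KNAT1* and *KNAT2*). The same held for 4 of the 5 vascular markers, where it held for 10.4% of all tested genes. Above *pep1-1* it was 1 of 4 and 2 of 5, against 12.6%. Below the wild type lay all *pep2-1* libraries of 1 of the 3 trichome markers (11.1% of all tested genes). Below *pep1-1* it was 2 of 3 (11.5%). Of the 15 tested markers of these 4 lists, none passed an adjusted p of 0.05 in edgeR in any of the 3 comparisons. At an unadjusted p under 0.05 there were 6 in *pep2-1* over the wild type, 0 in *pep1-1* over the wild type and 6 in *pep2-1* over *pep1-1*, against 15.3%, 6.36% and 19.1% of all tested genes. DESeq2 passed the vascular *PXY* in *pep2-1* over the wild type, and *PXY* (higher) and the trichome gene *GL1* (lower) in *pep2-1* over *pep1-1*. The part of these markers in the values of *CYCA2;4*, *KNOLLE* and the B-type cyclins was not tested.

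**Figure D4:**
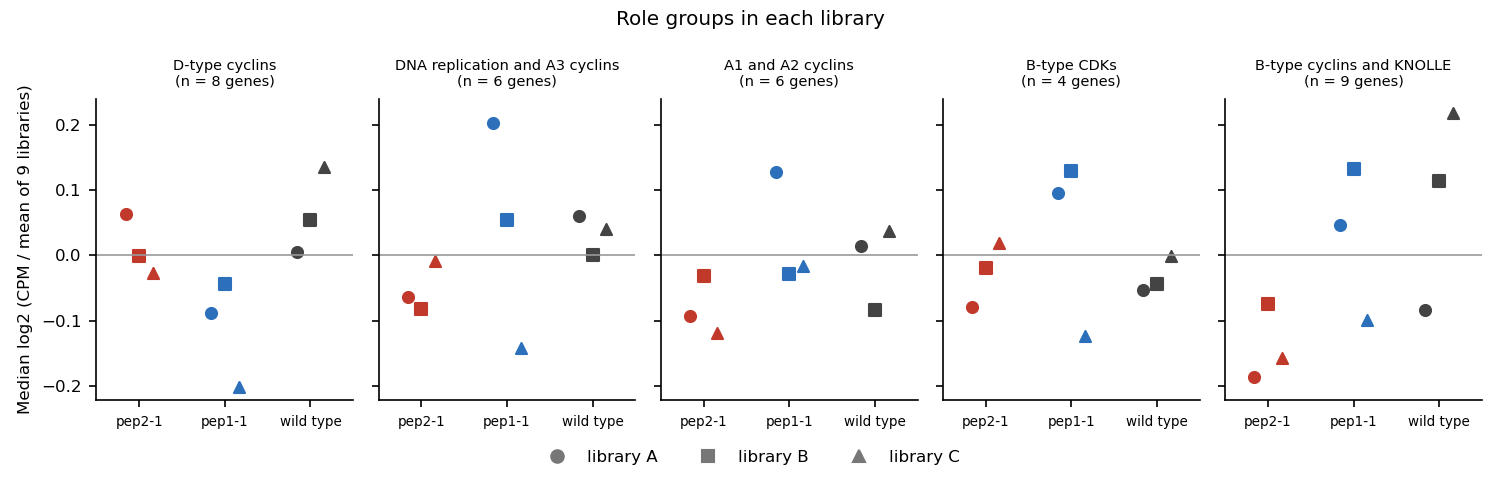
Median over the genes of a role group of the log2 ratio of CPM to the mean of the 9 libraries, for each library, with the genotypes from left to right as *pep2-1*, *pep1-1* and wild type and a marker shape per library letter. In the panel of B-type cyclins and *KNOLLE*, wild-type replicate A at -0.08 and *pep1-1* replicate C at -0.10 sit with the *pep2-1* libraries, which span -0.19 to -0.07.

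Counted over the 35 genes, libraries of *pep2-1* and the wild type did not overlap for 9 genes, 2 with *pep2-1* above (*CYCA1;2* and *CDKB1;1*) and 7 with *pep2-1* below, where 21.5% of all tested genes did not overlap, 10.4% above and 11.1% below. In *pep1-1* and the wild type 5 genes did not overlap, 2 above and 3 below, against 10.9% of all tested genes, 5.0% above and 5.94% below. In *pep2-1* and *pep1-1* 9 genes did not overlap, 1 with *pep2-1* above (*CYCD5;1*) and 8 below, against 24.1% of all tested genes, 12.6% above and 11.5% below. The replicates of the 35 genes had a median coefficient of variation of 7.12% in *pep2-1*, 9.87% in *pep1-1* and 7.56% in the wild type. Over all tested genes it was 9.61%, 11.4% and 10.3%. The 2 sets were not matched for level (median 28.5 FPKM for the 35 genes and 11.9 FPKM for all tested genes).

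Genes that work beside the cyclins and CDKs were called at shares near or below those of all tested genes. Of 86 further genes listed from Arabidopsis (CDK inhibitors, the E2F, DP, RBR and MYB3R regulators of transcription, other CDKs and activators of the anaphase-promoting complex, other replication genes, other mitosis and cytokinesis genes, and histones), 67 were tested. The number past an adjusted p of 0.05 in edgeR was 1 in *pep2-1* over the wild type, 0 in *pep1-1* over the wild type and 0 in *pep2-1* over *pep1-1*, where 1.52%, 0.193% and 2.51% of all tested genes passed. At an unadjusted p under 0.05 there were 7, 3 and 6 of the 67, against 15.3%, 6.36% and 19.1% of all tested genes, and DESeq2 and limma-voom also passed 1, 0 and 0. The 13 histone H3.1 and H4 genes on the list were not analysed here. The 10 further mitosis and cytokinesis genes had a median log2 fold change of -0.13 in *pep2-1* over the wild type, with 10 of 10 below 0. Their values ran from -0.25 to -0.00015, the last being no difference. None of the 10 had an unadjusted edgeR p under 0.05. All *pep2-1* libraries lay below the wild type for 2 of them, against 11.1% of all tested genes. The 24 further replication genes had a median log2 fold change of -0.02, with 13 of 24 below 0. The 11 other CDKs, partners and activators had -0.07, with 7 of 11 below 0. On the other side, the 10 tested CDK inhibitors had 0.12, with 3 of 10 below 0. The 12 E2F, DP, RBR and MYB3R regulators had 0.06, with 4 of 12 below 0. Of all tested genes, 50.3% were below 0.

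The 1 that passed was *KRP6* (AALP_AA3G219700), a CDK inhibitor of the same family as *KRP1* that in Arabidopsis is removed in the male germline before division. It had 3.92, 5.10 and 4.18 CPM in *pep2-1*, 3.65, 3.75 and 3.67 CPM in *pep1-1* and 2.70, 2.21 and 2.46 CPM in the wild type. Every library of both mutants lay above the wild type. The log2 fold change was 0.85 in *pep2-1* over the wild type (standard error 0.171, edgeR adjusted p = 0.0423) and 0.60 in *pep1-1* over the wild type (standard error 0.173, edgeR adjusted p = 0.480). The call was close to the threshold: it held in 7 of 17 alternative settings and was lost without any 1 of 8 of the 9 libraries, wild-type replicate A being the exception, with adjusted p between 0.0274 and 0.188 over all settings.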

How the data were processed

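The authors mapped single-end TruSeq reads with TopHat (default parameters) and estimated levels with CuffDiff. The sources used here do not give versions, the annotation release, strand or how reads shared by close copies of a gene were treated, so counts of similar cyclins and CDKs are less certain. Tests used the deposited raw reads of each gene, taken as estimated counts because 64 genes had fractional values, which were rounded. FPKM values per genotype, which the authors deposited from their CuffDiff run, served only to compare levels between genes. A further 18 per-library columns (scaled reads and FPKM) and 9 columns of the authors' own comparisons (fold changes, p-values and q-values) were not used. Gene starts were raised by 1, since CuffDiff counts them from 0.

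Low genes were removed in edgeR 4.0.16 by filterByExpr, with a minimum count of 10 and a minimum total of 15. Libraries were scaled by TMM (factors 0.981 to 1.03) and tested with the edgeR quasi-likelihood test in 1 model of 9 libraries in R 4.3.3. P-values were adjusted by Benjamini-Hochberg over 21713 genes. A log2 fold change of 0 means no difference, and its standard error is its size over the square root of F. A 2-fold call followed the study's rule. Because the submitters' labels number the replicates while the table letters them, a column was tied to a genotype and not to a single sample, and p-values measure the spread between these libraries. Deviations of same-letter libraries from their genotype means correlated across genes at 0.537, 0.330 and 0.234 between *pep1-1* and the wild type. These letters were read as pairs. Between *pep2-1* and the wild type the values were 0.415, 0.286 and 0.00125, and between *pep2-1* and *pep1-1* 0.273, 0.0485 and -0.00473. There the letters were not read as pairs. The reported fit has no term for the letter in any comparison. The pairing enters only in the replicate block, an alternative fit that covers all 9 libraries. Intervals are gene by gene and not adjusted.

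The gene family and the gene lists were chosen with earlier results of these data known, while membership of the family follows the identifiers. Genes given with all libraries were, in each role group, the one with the highest FPKM and the one with the largest fold change, plus any past an adjusted p of 0.05. *CYCD6;1*, *MCM2*, *CYCA2;3*, *CYCA1;2* and *CYCB1;1* were added after their values were seen. Alternatives were edgeR with DESeq2 size factors or with library size alone, DESeq2 1.42.0, limma-voom (limma 3.58.1), no filter, the 6 libraries of a comparison alone, a replicate block, each library left out, and the 3 libraries lettered A left out.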

Additional observations from a re-analysis of the deposited data

How the results depend on the processing

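The call of *CYCA2;4* in *pep2-1* over *pep1-1* held under the 17 alternatives. With the replicate block, 1 of the 35 genes, again *CYCA2;4*, passed in *pep2-1* over the wild type (log2 fold change -0.38, edgeR adjusted p = 0.0487) and 1 in *pep1-1* over the wild type (edgeR adjusted p = 0.0480). In *pep1-1* over the wild type it also passed with DESeq2 (1 gene, adjusted p = 0.0167). The block changed no other call among the 35 genes. Members past the threshold ranged from 0 to 0 over the fits without 1 library in both comparisons with the wild type. At 2-fold, leave-one-out counts in *pep2-1* over *pep1-1* ranged from 0 to 1, the 1 being *CYCA2;4* without *pep2-1* replicate B. The median log2 fold change of the 35 genes in *pep2-1* over the wild type was -0.15 without the 3 libraries lettered A and lay between -0.13 (without wild-type replicate A) and -0.066 over the fits without 1 library. In *pep2-1* over *pep1-1* it lay between -0.16 (without *pep1-1* replicate C) and -0.029. For *pep1-1* over the wild type the range without 1 library was -0.05 to 0.05. The cause of these shifts was not tested.

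The background counts depend on the setting far more. Genes past an adjusted p of 0.05 over the whole table numbered 330 in *pep2-1* over the wild type in the reported fit, 658 with DESeq2, 1107 with the replicate block and 1456 without the libraries lettered A, and 85 (without wild-type replicate B) to 587 (without wild-type replicate A) over the fits without 1 library. In *pep1-1* over the wild type there were 42, against 120, 89 and 89 in those settings, 24 with only the 6 libraries compared, and 17 to 35 over the fits without 1 library. In *pep2-1* over *pep1-1* there were 545, against 1134, 1925 and 1784, 350 with only the 6 libraries, and 125 (without *pep1-1* replicate B) to 1046 (without *pep1-1* replicate A). At 2-fold the ranges were 69 to 541, 15 to 70 and 92 to 723, around 181, 35 and 290. The number of libraries limits the precision, and a gene of a few CPM such as *KRP6* cannot be placed firmly on a side of the threshold.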
